A study of Mus musculus with 2 samples.

Results

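The genes described here are 8 genes that mark Schwann cells and myelin: Scn7a, Pmp22, Mbp, S100b, Sox10, Ngfr, Cdh19 and Ncam1. They were taken by gene symbol from a table of 24646 genes, and where a symbol stood on more than 1 transcript cluster the cluster with the highest mean signal was kept. Signals came from 2 Affymetrix arrays of sorted mouse mammary stromal cells. The ablated sample held cells with Gli2 ablated in the stroma (Gli2∆S) and the control sample cells of littermates with intact Gli2 (Gli2WT), both at an age of 10 weeks. Gli2 carries hedgehog signals to their target genes, and the study asks which stromal genes depend on it. In both groups Cre was driven by the Fsp1 (S100a4) promoter, and the Rosa26mTmG reporter made the cells that carried Cre fluoresce green, which was the mark used for the sort. With 1 sample in each group there is no replicate, so no difference below has a test or an error, and a size of 2-fold was used to count genes. The labels name neither the Gli2 allele nor whether animals were pooled.

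Schwann cells are the glia of peripheral nerves and run with the nerves that enter the mammary gland. Myelinating Schwann cells wrap 1 axon in compact myelin, whereas non-myelinating Schwann cells hold bundles of thin axons and keep adhesion molecules and receptors of the immature stage. Sox10 acts at every stage of this lineage, and with Egr2 (Krox20) it switches on the myelin genes. Schwann cells also make the hedgehog ligand Dhh, which acts on the cells of the nerve sheath.

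As a check on the samples, Gli2 had a log2 signal of 5.32 in the ablated sample and 5.94 in the control sample (difference -0.62), and S100a4, whose promoter drives the Cre, had 7.98 in the ablated sample and 8.16 in the control sample. Both Gli2 signals lay below the signal filter of 6.445, the median over all genes of the higher of a gene's 2 signals. The table gives no detection calls, so a signal below the filter cannot be told from background. The filter is a median and not a detection limit, so a signal above it is not shown to exceed background either. The sources used here do not place the Gli2 probes relative to the deleted part. Of 20 fibroblast markers 19 were lower in the ablated sample (median -0.98), beside 47.0% of all genes. Their summed linear signal was 18848 in the ablated sample and 26861 in the control sample. Of 18 T and NK cell markers, measured in the same sorted cells, 17 were higher and 1 lower (median 0.23). Their sums were 22285 in the ablated sample and 18392 in the control sample. A lower signal in a sorted sample can come from fewer cells of a type or from less RNA per cell, and these cannot be told apart here.

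Of the 8 genes, 7 had a lower signal in the ablated sample and 1 a higher one, with a median difference of -0.38 on the log2 scale (range -1.19 to 0.42). Over all 24646 genes the median difference was 0.00 and 47.0% were lower. Only Scn7a was at least 2-fold lower, against 0.933% of all genes, and Scn7a and Pmp22 were at least 1.5-fold lower, against 3.30%. No member was 1.5-fold higher, against 1.72% of all genes. The differences were not alike. Of the genes above the filter in both samples, 2 had large differences and 1 a small one, and the others lay near or below the filter.

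**Figure D1:**
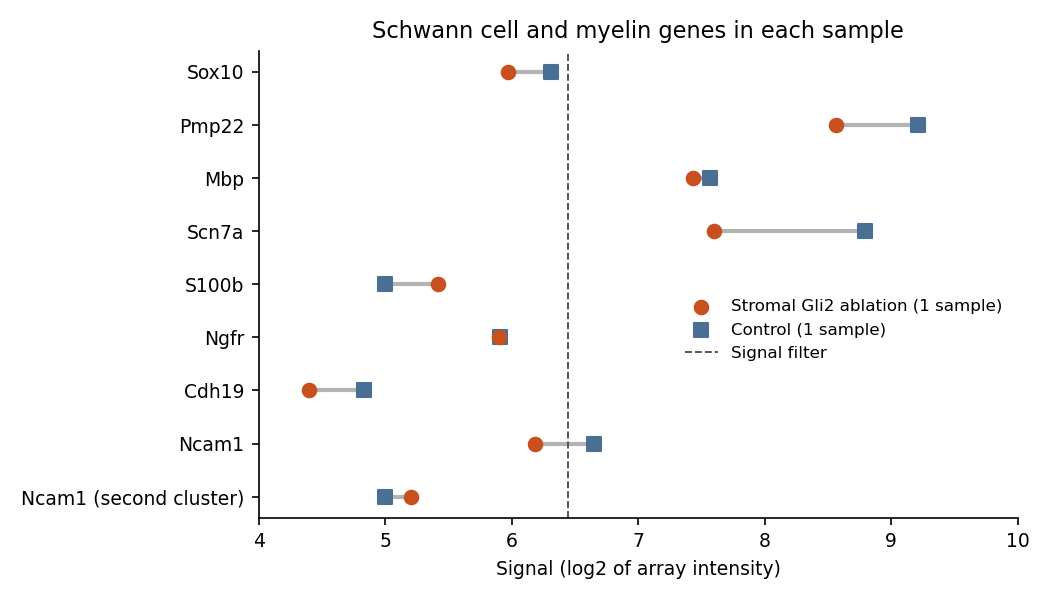
Log2 signal of each of the 8 genes in the ablated sample (circles) and the control sample (squares), 1 array each, with the second Ncam1 transcript cluster in the bottom row and the signal filter of 6.445 as a dashed line. Scn7a has the longest gap (7.60 in the ablated and 8.79 in the control sample), and Ngfr has almost none (5.90 in the ablated and 5.91 in the control sample).

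Both signals of Scn7a, Pmp22 and Mbp lay above the filter. Ncam1 passed only through its control signal, so it could pass only by being higher there, and Sox10, Ngfr, Cdh19 and S100b were below the filter in both samples. The 4 genes that passed had differences of -1.19 to -0.14, and the 4 below it -0.43 to 0.42. As a guide to how far single genes scatter on these arrays, the scaled median absolute deviation of all differences was 0.21 among genes passing the filter, and between 0.15 and 0.30 in 20 bins of mean signal. It describes the scatter across genes and not the error of a gene.

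The promoter windows of the genes with the largest differences, Scn7a and Pmp22, and of S100b, the gene that was higher, are shown because the factors that control myelin genes bind known motifs. Each window holds 250 bases before and 50 after a RefSeq transcript start in build GRCm38.p6, read 5′ to 3′ on the strand of the gene, and capitals mark a match to a searched motif. The Scn7a window lies at chr2:66784861-66785160 on the minus strand, the Pmp22 window shown, the most upstream of 4, at chr11:63128732-63129031 on the plus strand, and the S100b window at chr10:76253586-76253885 on the plus strand.
Scn7a: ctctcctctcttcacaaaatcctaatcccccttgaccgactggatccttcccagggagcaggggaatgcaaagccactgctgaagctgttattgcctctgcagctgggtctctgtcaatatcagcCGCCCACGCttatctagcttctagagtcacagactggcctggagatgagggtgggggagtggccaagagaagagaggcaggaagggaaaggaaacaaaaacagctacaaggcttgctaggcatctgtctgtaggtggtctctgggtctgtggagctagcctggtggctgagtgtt
Pmp22: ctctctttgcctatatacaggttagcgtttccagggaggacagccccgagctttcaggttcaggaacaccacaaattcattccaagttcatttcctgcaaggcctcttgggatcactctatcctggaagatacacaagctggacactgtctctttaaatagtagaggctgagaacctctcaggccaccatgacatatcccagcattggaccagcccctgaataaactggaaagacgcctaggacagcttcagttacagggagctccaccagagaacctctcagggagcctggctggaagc
S100b: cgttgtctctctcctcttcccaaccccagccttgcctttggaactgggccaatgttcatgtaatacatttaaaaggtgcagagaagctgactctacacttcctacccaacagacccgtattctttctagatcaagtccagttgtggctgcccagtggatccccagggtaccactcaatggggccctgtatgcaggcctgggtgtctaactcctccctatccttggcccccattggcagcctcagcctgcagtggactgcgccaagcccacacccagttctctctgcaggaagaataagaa

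Windows were found for 4 of the 8 genes, 7 in all (4 for Pmp22 and 1 each for Scn7a, S100b and Ngfr). The EGR motif GCGTGGGCG, searched on both strands, matched in the Scn7a window alone, as its reverse complement CGCCCACGC starting 125 bases before the start site. This motif was found in 0.612% of all 32851 windows in the table. The SOX motif ACAAAG was found in 0 of the 7 windows and in 18.7% of all windows, and the GLI motif GACCACCCA in 0 of the 7 and in 0.253% of all. The searched motifs do not overlap one another in these windows. A match describes the letters only, and the arrays do not measure binding.

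Scn7a encodes a sodium channel of the voltage-gated family that responds to the sodium level around the cell and is known in non-myelinating Schwann cells and other glia. Its log2 signal was 7.60 in the ablated sample and 8.79 in the control sample, a difference of -1.19 or 2.28-fold lower in the ablated sample. The authors' deposited table gives a fold of 2.29 for Scn7a, with control on top, and for the other 7 members signed folds between -1.34 (S100b, higher in the ablated sample) and 1.56 (Pmp22). The scatter of genes in the same signal bin was 0.18.

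Of the 14 listed sodium channel genes, 12 were below the filter in both samples, with 6 lower and 6 higher. Their differences ran from -0.50 for Scn10a to 0.48 for Scn1a, channels known from sensory and central neurons. Signals of different probe sets do not measure relative RNA amounts, so no order of abundance is read from them.

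Pmp22 encodes a small membrane protein of compact myelin. It is also known in mouse fibroblasts as Gas3, a gene switched on at growth arrest. Its signal was 8.56 in the ablated sample and 9.21 in the control sample, a difference of -0.65 or 1.57-fold lower in the ablated sample. In its family, Tmem47, a related junction protein, was more than 2-fold lower (8.26 in the ablated sample and 9.40 in the control sample, difference -1.14, or -0.93 with both of its clusters averaged). Emp1 had a difference of -0.55, or -0.30 with its clusters averaged, and Emp2 one of -0.30. Emp3 (0.12) and Perp (0.06), a p53 target of epithelial junctions, were slightly higher. These relatives are expressed in epithelial and mesenchymal cells as well as glia.

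Mbp encodes myelin basic protein, which seals the inner faces of the myelin membrane. The same gene gives golli transcripts, which are known in lymphoid cells. Its signal was 7.43 in the ablated sample and 7.57 in the control sample, a difference of -0.14 that was smaller than the scatter of 0.21 among genes of like signal. The T and NK cell markers given above were higher in the ablated sample, and their part in the Mbp signal was not tested. The Mbp cluster carries 33 public identifiers, so it does not separate the transcripts of the gene.

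Sox10, the transcription factor that defines the lineage, had 5.97 in the ablated sample and 6.31 in the control sample (difference -0.34), both below the filter. Mammary epithelial cells and melanocytes also express Sox10. Counting genes above and below the filter, the median difference was -0.08 for 10 luminal epithelial markers, -0.46 for 10 basal epithelial markers and 0.05 for 9 melanocyte markers. The summed linear signal was 3973 in the ablated sample and 4031 in the control sample for the luminal list and 711 in the ablated sample and 911 in the control sample for the basal list. For the melanocyte list it was 1286 in the ablated sample and 1343 in the control sample. Their part in the Sox10 signal was not tested.

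S100b, a calcium-binding protein of glia that adipocytes also make, was the only member with a higher signal in the ablated sample. It had 5.42 in the ablated sample and 5.0 in the control sample, a difference of 0.42 with both signals below the filter. Adipocyte markers were lower in 10 of 10 cases (median -0.26, summed linear signal 2171 in the ablated sample and 3550 in the control sample), beside 47.0% of all genes. Only 4 of the 10 passed the filter (median -0.78). Listed S100 genes that passed the filter were split, with 4 lower and 3 higher, from S100a1 (-0.49) to S100a13 (0.19). The higher ones include S100pbp (0.04), a binding protein that is not itself an S100 protein.

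Ngfr, a receptor of neurotrophins known from immature and injured Schwann cells, had 5.90 in the ablated sample and 5.91 in the control sample, a difference of -0.01. Pericytes and basal epithelial cells also express Ngfr. Markers of pericytes and smooth muscle were lower in 10 of 10 cases, beside 47.0% of all genes. Their summed linear signal was 1171 in the ablated sample and 1618 in the control sample. Of the 10, 9 passed the filter, Des only through its control signal. Gfra2, the neurturin co-receptor, had 7.50 in the ablated sample and 8.28 in the control sample, a difference of -0.78. Sort1, a receptor that partners Ngfr, was higher by 0.31, or 0.12 with its clusters averaged. Of the 20 listed neurotrophins, GDNF-family ligands and receptors, 4 passed the filter, and 3 of these were lower and 1 higher.

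Cdh19, a cadherin of the Schwann cell lineage, had 4.40 in the ablated sample and 4.83 in the control sample, a difference of -0.43 with both signals below the filter. Of the 20 other cadherins listed, 13 were lower in the ablated sample and 7 higher, beside 47.0% lower over all genes. Their median was -0.20 (range -0.91 to 0.38). Among those above the filter in both samples, the largest differences were those of Cdh11, the cadherin of mesenchymal cells (7.36 in the ablated sample and 8.27 in the control sample, -0.91), Cdh5, the cadherin of endothelial junctions (-0.85), and Cdh1, the epithelial cadherin (-0.37, or -0.23 with its clusters averaged). Endothelial markers were lower in 10 of 10 cases, beside 47.0% of all genes, with summed linear signals of 2863 in the ablated sample and 3819 in the control sample. Of the 10, 9 passed the filter, Tek and Cldn5 only through their control signals.

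Ncam1, an adhesion molecule kept by non-myelinating Schwann cells and lost with myelination, stood on 2 transcript clusters that disagreed. The cluster with the higher signal gave 6.18 in the ablated sample and 6.65 in the control sample (difference -0.47). The other gave 5.20 in the ablated sample and 5.0 in the control sample (difference 0.20), below the filter in both. All 10 public identifiers of the first cluster also stand on the second, which lists 14 and whose description adds a predicted gene. Averaging both clusters gave -0.14, so the direction of Ncam1 rests on 1 cluster. Among its relatives L1cam, another adhesion molecule of non-myelinating Schwann cells that leukocytes also carry, had 8.01 in the ablated sample and 7.89 in the control sample.

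**Figure D2:**
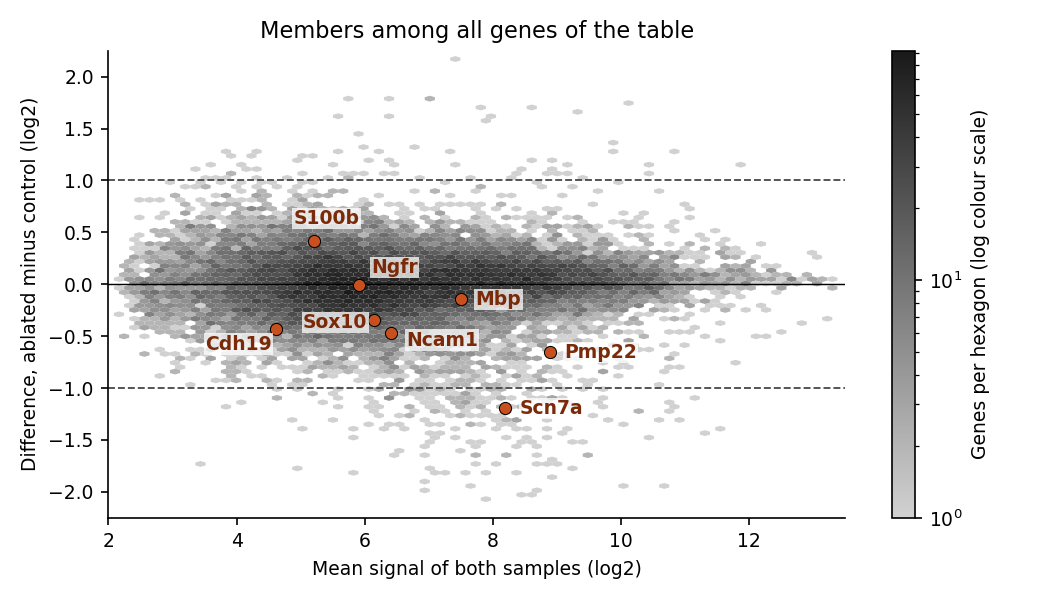
Difference between the samples (ablated minus control, log2) against the mean signal of both samples for all genes, shown as grey hexagons, with the 8 genes as circles and 2-fold as dashed lines; genes more than about 2.2 from 0 are off the scale. Scn7a (-1.19) lies past the 2-fold line and Pmp22 (-0.65) at the lower edge of genes with like signal, while S100b, Sox10, Ngfr, Cdh19 and Ncam1 lie within the cloud of dim genes.

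Next, 3 lists of myelin and Schwann cell genes were read, which hold 54 genes besides the 8, not all of them particular to Schwann cells. Of the 54, 35 were lower in the ablated sample, 16 higher and 3 equal, with a median of -0.14, beside 47.0% lower over all genes. The 23 that passed the filter had a median of -0.06, with 13 lower and 8 higher, beside 0.02 and 44.8% lower over all 12323 genes passing it. Among them 2 (Gpm6b and Matn2) were at least 2-fold lower, Matn2 with a signal below the filter in the ablated sample, against 1.73% of all genes passing the filter, and 0 were at least 2-fold higher, against 0.373%.

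Other structural genes of myelin had smaller differences than Pmp22. Drp2, a dystrophin-related protein that binds Prx in Schwann cells, had 6.33 in the ablated sample and 6.60 in the control sample (-0.27), passing the filter by its control signal. Prx, which links the myelin sheath to its basal lamina, had a difference of -0.43 below the filter, and Mag, an adhesion protein that faces the axon, one of 0.09. Without Pmp22 and Mbp, the 21 myelin genes had a median of -0.13 (range -0.43 to 0.26), with 12 lower and 6 higher, beside 47.0% lower over all genes. The 9 of them that passed the filter, some through 1 sample alone, had a median of 0.00.

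Without Sox10, the 16 genes on the transcription factor list, not all particular to Schwann cells, were split, with 9 lower and 7 higher (median -0.03). Egr2, the master regulator of myelination, had 8.69 in the ablated sample and 8.78 in the control sample (-0.09). It is also an early response gene of lymphocytes and fibroblasts. Jun, which drives the repair state of Schwann cells and is an immediate early gene of cell stress, was higher by 0.26. Myrf, listed under its older name Gm98, had the largest difference of the 16, -0.43. It passed the filter only through its control signal (6.31 in the ablated sample and 6.74 in the control sample). Zeb2 had -0.33, or -0.50 with its clusters averaged. The ErbB receptor through which axons instruct Schwann cells, Erbb3, had 7.06 in the ablated sample and 6.78 in the control sample (0.28). Its ligand Nrg1 had a difference of -0.20, and mammary epithelial cells express Erbb3 too.

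In the list of immature, non-myelinating and repair Schwann cell genes, 14 of the 17 genes besides the members were lower in the ablated sample and 3 higher (median -0.27). Over all genes 47.0% were lower, and only 5 of the 17 passed the filter. Above the filter in both samples were Gpm6b and L1cam, the second higher by 0.12. Gpm6b, a membrane glycoprotein known in glia, had 7.41 in the ablated sample and 9.21 in the control sample (-1.80, or 3.48-fold lower in the ablated sample). Matn2, a matrix protein laid down around growing nerves, had 6.17 in the ablated sample and 7.18 in the control sample (-1.01), and so passed the filter only through its control signal. Dhh (-0.29), Gap43 (-0.27), a growth-associated protein, and Gfap (-0.02), a glial filament, were below the filter in both samples.

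**Figure D3:**
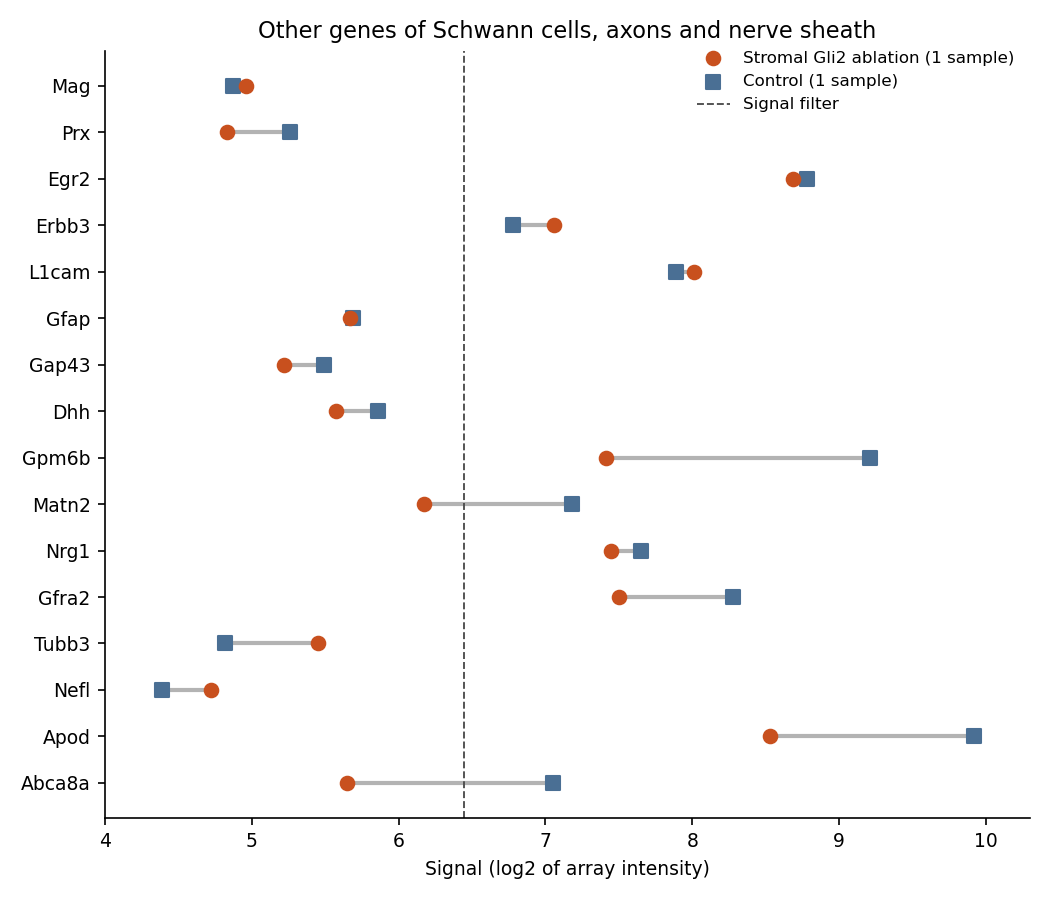
Log2 signal of 16 other genes of Schwann cells, axons and the nerve sheath in the ablated sample (circles) and the control sample (squares), 1 array each, with the signal filter as a dashed line. Of the genes drawn, Gpm6b, Apod and Abca8a have the longest gaps (Tac1 is not drawn), and Erbb3, L1cam, Mag, Tubb3 and Nefl are higher in the ablated sample.

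Genes listed as axon and neuron markers did not move in one direction. Tac1, the precursor of substance P, had 5.56 in the ablated sample, which is below the filter, and 7.21 in the control sample, a difference of -1.65 or 3.14-fold lower in the ablated sample. The neuronal tubulin Tubb3 (0.63) and the neurofilament Nefl (0.33) were higher and below the filter. Of 16 axon and neuron markers 8 were lower and 8 higher, with a median of -0.01, and only 5 passed the filter. Which of the sorted cells gave the Tac1 signal was not tested. Of 8 markers of the nerve sheath and of the fibroblasts inside nerves that passed the filter, 2 were at least 2-fold lower, against 1.73% of all genes passing it. Apod, a lipid-binding protein, had 8.53 in the ablated sample and 9.92 in the control sample (-1.39). Abca8a, a lipid transporter, had 5.65 in the ablated sample and 7.05 in the control sample (-1.40). It passed the filter only through its control signal, so it could count only as lower. Apod and Abca8a are also expressed by fibroblasts outside nerves. Sox9 (-0.09) and Slc2a1 (-0.08), found in the sheath and in other cells, differed little. Cldn1, also found in both, had -0.23, beside a scatter of 0.18 among genes of like signal.

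**Figure D4:**
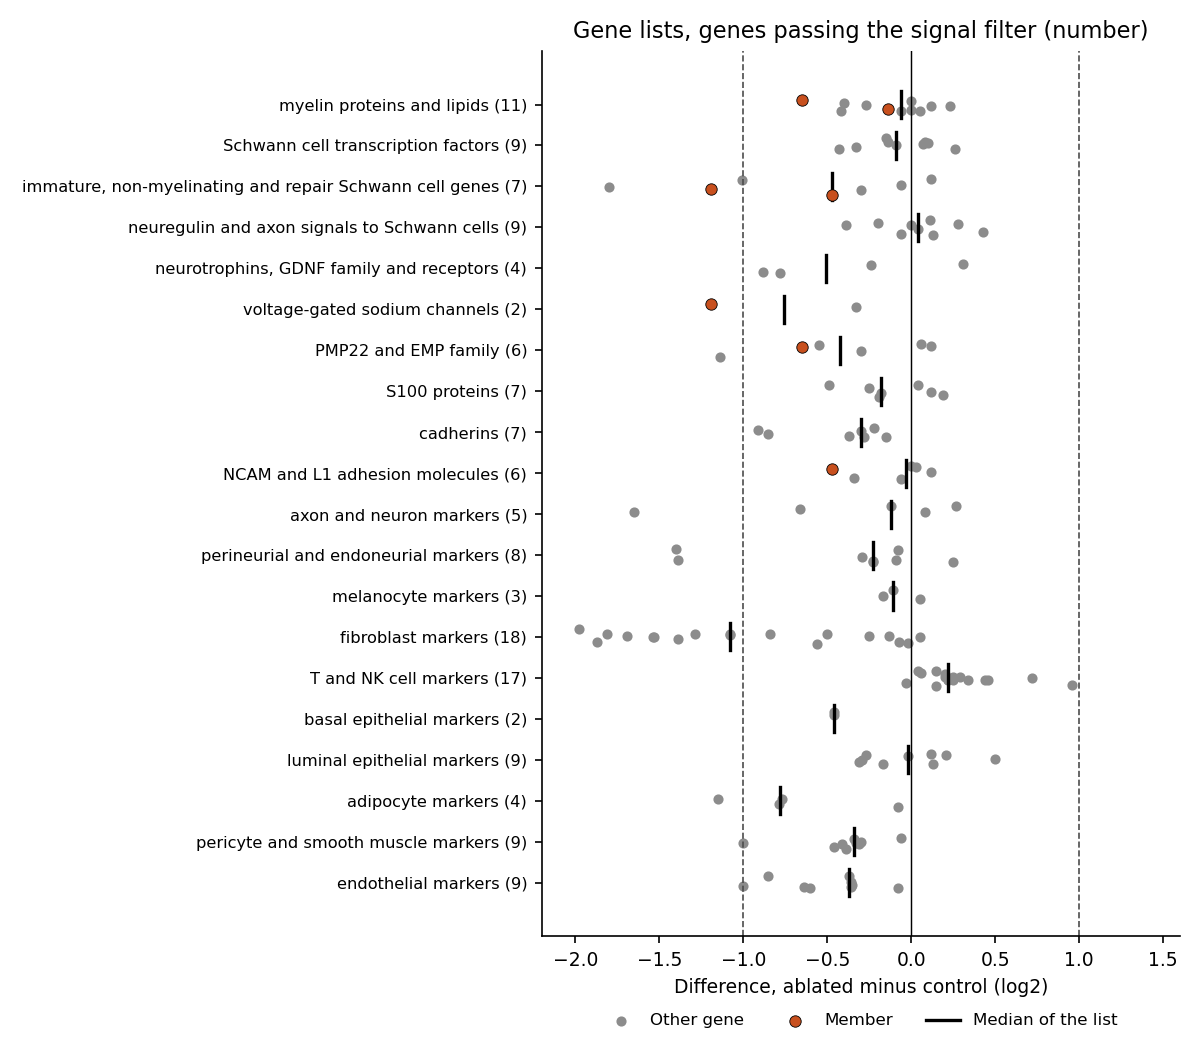
Difference between the samples (ablated minus control, log2) for each gene that passed the signal filter, in the 20 lists, with members as large circles, medians as vertical bars, 2-fold as dashed lines and the number of genes in brackets. The fibroblast list has the lowest median (-1.08) and the T and NK cell list the highest (0.22). The myelin list (-0.06) and the list of Schwann cell transcription factors (-0.09) lie near 0. The list of immature, non-myelinating and repair Schwann cell genes lies at -0.47, with some genes passing only through the control signal.

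The label of Schwann cell genes was set against the defining markers of the cell type. Sox10, S100b, Ngfr and Cdh19 were below the filter in both samples, as were Foxd3, Prx, Mag, Gfap and Gap43. L1cam, Egr2 and Erbb3 were above the filter in both. Scn7a, Pmp22 and Mbp were the members above it in both. Differences of the fibroblast markers ran from -1.98 for Pdgfra to 0.05 for Ly6a. At least 2-fold lower were 10 of the 20, against 0.933% of all genes, with Prrx1 passing the filter only through its control signal. The part of fibroblasts in the differences of Scn7a, Pmp22, Gpm6b and Apod was not tested.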

How the data were processed

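The deposited table holds log2 signals (bi-weight averages) of 41345 transcript clusters in 2 samples, 1 per group, per the file headers, and 27036 clusters carry a gene symbol. The authors also deposited a linear fold change, signed, with control on top. Per the submitters' processing notes, Transcriptome Analysis Console was used. The array design, the normalization and the build are not stated there. The series matrix gives the same log2 signals with more decimals.

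For each of 24646 symbols, the cluster with the highest mean signal was kept and the ablated minus control difference taken. Genes passed the filter where the higher signal was at least 6.445, which left 12323. With 1 array per group no test across samples was possible, and precision is limited by the number of arrays. The 8 genes, the 20 gene lists and the rules for naming genes (members, defining markers, genes at least 2-fold apart and up to 3 with the largest differences per list) were chosen with earlier results of these data known. Some genes these rules name are not reported here. Of 289 list entries, 283 matched by symbol, 5 by a RefSeq synonym (GRCm38.p6) and 1 was not found. Promoter windows are RefSeq's, build GRCm38.p6. The steps were tested on simulated data. Alternatives were quantile scaling, loess (span 0.3) and centring on the median difference, other filters, folds of 1.5 and 3, the mean over clusters, the deposited fold and the series matrix. Scripts ran under Python 3.11.15 with matplotlib 3.10.9, statsmodels 0.14.6, pandas 2.3.3 and numpy 2.4.6.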

Additional observations from a re-analysis of the deposited data

Results flagged for a closer look

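The second transcript cluster of Ncam1, which the comparison left out because its mean signal was lower, was 0.20 higher on the log2 scale in the ablated sample (5.20) than in the control sample (5.0), opposite to the cluster that was used.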

How the results depend on the processing

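No paired analysis was possible because each group holds 1 sample and no result comes from a test; for the same reason no sample could be left out. The median of the 8 genes (-0.38) became -0.92 when the filter was raised to the 75th percentile of the signals, which leaves 2 of them, both lower. Of these, Scn7a passed the raised filter of 7.87 only through its control signal, so it could count only as lower. With the filter at the median, chosen after seeing the data, 4 remained, 4 of them lower. Among these 4, Ncam1 passed only through its control signal, so its direction was fixed by the filter. At 1.5-fold, 2 members, 575 genes lower and 154 genes higher were counted, against 1, 213 and 46 at 2-fold and 0, 40 and 15 at 3-fold; without the filter, 75 genes were higher. Ncam1 was at -0.14 (main value -0.47) with its clusters averaged. List medians changed sign in 4 cases: Schwann cell transcription factors 0.07 under the raised filter, the neuregulin list -0.0007 under loess and -0.20 under the raised filter, and melanocyte markers 0.05 without a filter. The median of the myelin list (-0.06, members included) was -0.30 under the raised filter. The immature, non-myelinating and repair list (-0.47) was -0.15 with clusters averaged and -1.19 under the raised filter. The neurotrophin list (-0.51) was -0.16 without a filter and -0.83 under the raised filter. The sodium channel list (-0.76) was -0.075 without a filter and -1.19 under the raised filter. Under the raised filter the cadherin list (-0.30) was -0.85 and the pericyte list (-0.34) -0.73. Without a filter the adipocyte list (-0.78) was -0.265. Under the other filters different genes are counted; for loess the cause was not tested. Averaging all clusters, scaling or using the deposited folds left the direction of each of the 8 genes as reported. Signals below the filter, in 4 of the 8 genes, limit what can be said of Sox10, S100b, Ngfr and Cdh19.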
